A study of Rattus norvegicus with 18 samples.

Results

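Subcutaneous abdominal fat was compared between rats that were losing weight after gastric bypass and rats that gained weight after it, on 3 arrays labelled RYGB-Success and 3 labelled RYGB-Fail. These 6 arrays were chosen by their sample titles from the 18 arrays of the study, which also holds 3 fat arrays from Pair-Fed rats and 9 arrays from hypothalamus. RYGB is Roux-en-Y gastric bypass, in which a small stomach pouch is joined to a lower stretch of the small intestine. The RYGB-Success rats were losing weight successfully after the operation, the RYGB-Fail rats were gaining weight, and the Pair-Fed rats received as much food as the treated ones, per the study's design text. That text calls the 3 samples of a group biological replicates, and it does not say whether animals were pooled. Strain, sex, age and time since surgery were not given in the labels. RNA from each sample was purified with Qiagen RNeasy, amplified and labelled with biotin through NuGEN WT Ovation and read on arrays with 31099 probe sets. The arrays are named here by group and replicate number, as in Success 1 or Fail 3.

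White fat stores energy as triglyceride in the lipid droplets of adipocytes. Adipocytes make fatty acids from glucose, take up fatty acids that lipoprotein lipase frees in the capillaries, and release them again by lipolysis when insulin is low and adrenergic signals are high. The tissue also holds capillaries, fibroblast-like progenitors in a collagenous matrix, macrophages and lymphocytes, and under the skin it borders on muscle, mammary gland and skin.

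All 6 arrays carried the adipocyte transcripts. Adiponectin (Adipoq), the most abundant adipokine, read between 17271 and 60117 signal units on them, against 86 to 410 on the 9 hypothalamus arrays. The droplet coat gene Plin1 read between 10964 and 26517 against 6.95 to 135, and the neuronal gene Snap25 read between 52 and 1089 against 13279 to 25290. Values are MAS5 signals on a linear scale that the authors had already scaled to a common trimmed mean. The median over all probe sets nevertheless differed, at 162.9 to 200.0 on the 3 RYGB-Success arrays against 102.0, 98.2 and 287.7 on Fail 1, 2 and 3. Fail 3 stood apart from the other fat arrays. Its log2 signals correlated with theirs at a median r of 0.73 across probe sets, which are not independent replicates, against 0.794 to 0.848 for the others. Its brightest probe set reached 374039, against 52452 to 182561 elsewhere, and its ratio of 3' to 5' beta-actin control probes was 2.46, against 12.03 to 24.26. The same ratio for the GAPDH controls was 3.8, within the 2.91 to 5.89 of the other fat arrays. For the hexokinase controls it was 0.78, also within their range of 0.21 to 14.26. The 5S ribosomal RNA control read 1161, 920 and 1809 on Success 1 to 3, and 258, 219 and 4457 on Fail 1 to 3. Results are therefore given with and without Fail 3, which leaves 2 RYGB-Fail arrays, and the part of RNA quality in the results was not tested.

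With all 3 arrays in each group, 0 of 18625 probe sets (0%) passed an adjusted p of 0.05 in the limma fit over the 9 fat arrays. The lowest adjusted p was 0.169. At an unadjusted p under 0.05 there were 1060 probe sets, 638 higher and 422 lower in RYGB-Success. The groups did not overlap in 1465 probe sets, of which 979 (5.26% of those tested) were higher and 486 (2.61%) lower in RYGB-Success. An exact permutation test on 3 against 3 arrays cannot give a p below 0.10, and on 3 against 2 none below 0.20. Where groups do not differ, 3 against 3 arrays separate fully, in either direction, with that same probability of 0.10. The shares of 5.26% and 2.61% together lie below it, so a lack of overlap by itself does not set a gene apart. The p-values measure the spread between these samples. Without Fail 3, 1116 probe sets passed, 947 higher and 169 lower in RYGB-Success.

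Much of that excess of higher calls depended on scaling. Without Fail 3 and after quantile normalization, which gives all arrays one distribution, 149 probe sets passed, 80 higher and 69 lower. All 80 were among the 947 called without that step, and made up 8.45% of them. All 69 were among the 169 lower calls, and made up 40.8% of them. The share of higher calls was thus 84.9% on the deposited scale and 53.7% after quantile normalization, and it was 13.9% of 1940 calls after each array was centred on its median. With Fail 3 included, 60.2% of the 1060 probe sets were higher as deposited, 47.7% after quantile normalization and 26.7% after centring. The median log2 change over the tested probe sets was 0.17 as deposited, 0.08 after quantile normalization and -0.13 after centring, and without Fail 3 it was 0.24, -0.01 and -0.57 in the same order. A change smaller than these shifts has no settled direction here.

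The higher calls without Fail 3 were mostly dim on Fail 1 and Fail 2, though not on the other RYGB arrays. Of the 947, 532 had a mean signal under 88.9 on Fail 1 and Fail 2, the lowest mean signal that passed the filter. Over all 947 the median signal was 386 on the RYGB-Success arrays and 77.1 on Fail 1 and Fail 2, while it was 950 on Fail 3. In 926 of the 947, Fail 3 read above both other RYGB-Fail arrays, and in 732 above all 3 RYGB-Success arrays. The 169 lower calls were brighter on Fail 1 and Fail 2 and dimmer on the others, with median signals of 2597 on Fail 1 and Fail 2, 252 on the RYGB-Success arrays and 391 on Fail 3. In 164 of the 169, Fail 3 lay below both other RYGB-Fail arrays, and in 27 below all 3 RYGB-Success arrays. Both sets of calls were chosen by their level on Fail 1 and Fail 2, so these counts partly follow from the choice. They describe the calls and were not set against all tested probe sets. Over all probe sets the median signal was 287.7 on Fail 3, against 102.0 and 98.2 on Fail 1 and Fail 2. With all probe sets ordered by mean signal and cut into 5 equal bins, the median change without Fail 3 was 1.13 in the dimmest bin and -0.03 in the brightest, and after quantile normalization it was 0.08 and 0.06.

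**Figure D1:**
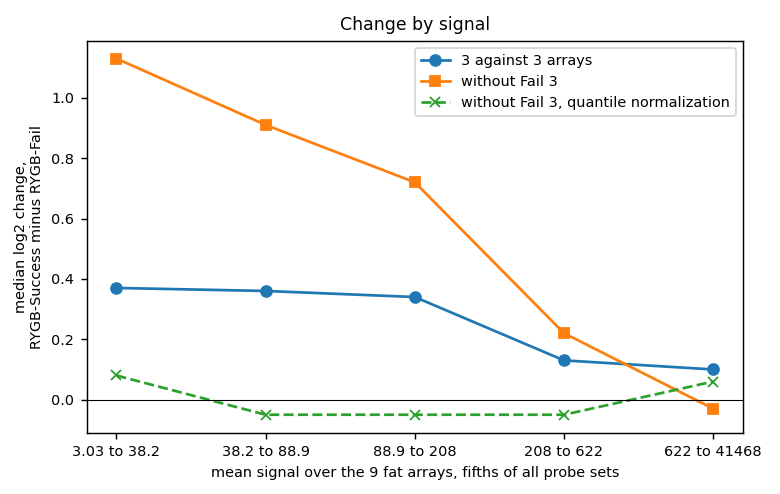
Median log2 change, RYGB-Success minus RYGB-Fail, in 5 equal bins of all probe sets ordered by mean signal over the 9 fat arrays (range of each bin on the horizontal axis). Circles show 3 against 3 arrays, squares the values without Fail 3, and crosses the values without Fail 3 after quantile normalization. Without Fail 3 the median runs between 1.13 in the dimmest bin and -0.03 in the brightest, and with quantile normalization it lies between -0.05 and 0.08.

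Genes of skeletal muscle were the group with the lowest median change, reading far lower in RYGB-Success fat. Their products build the sarcomere (myosins, troponins, titin, nebulin), release calcium in the fibre (Ryr1) and buffer its ATP (Ckm). Of all 14217 named genes 8434 were higher and 5783 lower in RYGB-Success, with a median log2 change of 0.13. Of 36 muscle markers on the array, 32 were lower in RYGB-Success and the median log2 change was -4.06. Without Fail 3 the median was -5.49, and after quantile normalization -5.98. With signals under 88.9 held at that value the median was -3.22. Of the 36 markers 28 passed the filter on mean signal. Several of them, such as Mybpc2 and Ckm, reached it through their high RYGB-Fail arrays. Counts of calls among them are therefore not set against all genes, and an adjusted p of such a gene has the same limit. In bulk tissue fewer cells of a type and less RNA per cell cannot be told apart.

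Sequence upstream of 3 of these genes is shown because they read lower together. Each run is RefSeq's GRCr8 sequence from 250 bases before to 50 bases after the gene's start, 5′ to 3′ on the gene's own strand, with the E-box CAGCTG, the kind of site that muscle regulatory factors of the MyoD family bind, and the TATA motif TATAAA in capitals on either strand (TTTATA is TATAAA on the other strand). CAGCTG reads the same on both strands, and the 2 motifs cannot overlap. Ckm (muscle creatine kinase) lies at chr1:88189211-88189510 on the plus strand, Myh4 (fast myosin heavy chain) at chr10:52421898-52422197 on the plus strand and Myl1 (fast myosin light chain) at chr9:75907647-75907946 on the minus strand.
Ckm: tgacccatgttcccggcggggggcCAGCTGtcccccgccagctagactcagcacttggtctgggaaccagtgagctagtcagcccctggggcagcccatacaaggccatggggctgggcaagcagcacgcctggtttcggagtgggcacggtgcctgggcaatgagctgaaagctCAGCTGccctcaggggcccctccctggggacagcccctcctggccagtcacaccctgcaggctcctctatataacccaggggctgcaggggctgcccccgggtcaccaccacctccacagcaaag
Myh4: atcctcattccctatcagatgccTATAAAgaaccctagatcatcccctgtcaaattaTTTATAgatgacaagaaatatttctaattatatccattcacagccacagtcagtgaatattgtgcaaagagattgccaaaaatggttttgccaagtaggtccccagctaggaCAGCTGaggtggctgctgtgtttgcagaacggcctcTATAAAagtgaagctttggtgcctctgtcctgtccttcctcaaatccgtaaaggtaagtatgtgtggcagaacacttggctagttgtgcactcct
Myl1: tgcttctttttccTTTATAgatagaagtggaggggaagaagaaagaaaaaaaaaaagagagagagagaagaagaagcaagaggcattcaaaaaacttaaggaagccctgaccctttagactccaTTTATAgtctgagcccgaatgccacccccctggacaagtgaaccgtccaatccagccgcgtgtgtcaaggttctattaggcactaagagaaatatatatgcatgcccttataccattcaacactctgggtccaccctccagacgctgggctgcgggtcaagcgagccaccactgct
Ckm held 2 E-boxes and no TATAAA, Myh4 held 1 E-box and 3 TATAAA matches, and Myl1 held no E-box and 2 TATAAA matches. Of the 36 muscle markers, 30 had a promoter in the table. Among these, 11 (36.7%) held CAGCTG, against 15.1% of all 27457 promoters of the same length, and 10 (33.3%) held TATAAA, against 14.3%. A match describes the letters only and says nothing about binding.

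The muscle signal came unevenly from the RYGB-Fail arrays. Myl1 read 323, 305 and 484 on Success 1 to 3, and 11446, 23748 and 808 on Fail 1 to 3. It was lowest on all 3 RYGB-Success arrays, high on Fail 1 and Fail 2 and only slightly above the RYGB-Success range on Fail 3. Its log2 change was -4.06 ± 0.93 (SE, adjusted p = 0.61, limma), and without Fail 3 it was -5.51 ± 0.44 (adjusted p = 0.000982), the lowest adjusted p of that fit. Changes with an SE are those of 3 against 3 arrays wherever Fail 3 is not named beside them. Ryr1, the calcium release channel, read 158, 95.1 and 224 on Success 1 to 3, and 4858, 21522 and 430 on Fail 1 to 3 (-4.57 ± 1.03; adjusted p without Fail 3 0.00171). Mybpc2, fast myosin-binding protein C, read 55.4, 114 and 69 against 3906, 24048 and 395. Titin (Ttn) and nebulin (Neb) had the same order of arrays, with Fail 2 highest, Fail 3 lowest of the RYGB-Fail arrays and no overlap between the groups.

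Where a group's mean lay under 88.9, a gene's fold is given as a bound against that signal. On that basis Mybpc2 was at least 34.6-fold lower in RYGB-Success, Ttn at least 18-fold and Neb at least 11.4-fold. Tpm1, a tropomyosin, and Ampd1, the AMP deaminase of muscle, were among the 10 lower genes with the smallest p. Ampd1 read 16.8, 8.47 and 115 on Success 1 to 3 against 2425, 23032 and 179 on Fail 1 to 3. One Tpm1 probe set read 3.79, 16.8 and 182 against 7341, 23677 and 196, so that Success 3 and Fail 3 were close. A second Tpm1 probe set read 137, 273 and 277 against 7497, 26869 and 541. Tpm1 had 5 tested probe sets, and 4 of them were lower.

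Ckm was narrowly separated. It read 13.2, 54.9 and 249 on Success 1 to 3, and 3792, 23944 and 260 on Fail 1 to 3, so that the lowest RYGB-Fail array was level with the highest RYGB-Success array. Myh4, Tnni2 and Tnnt3, a myosin and troponins of fast fibres, each passed without Fail 3 at an adjusted p of 0.0032. On Fail 2 the muscle genes named here other than Neb and Ttn all read between 21106 and 28012. The mean log2 signal over the 36 markers was 7.0, 6.8 and 7.8 on Success 1 to 3, and 10.2, 12.9 and 8.3 on Fail 1 to 3. On the Pair-Fed arrays it was 6.2, 6.9 and 6.0, close to the RYGB-Success arrays. The list's median kept its direction with each RYGB-Fail array left out, at -3.82 without Fail 1, -2.55 without Fail 2 and -5.49 without Fail 3.

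**Figure D2:**
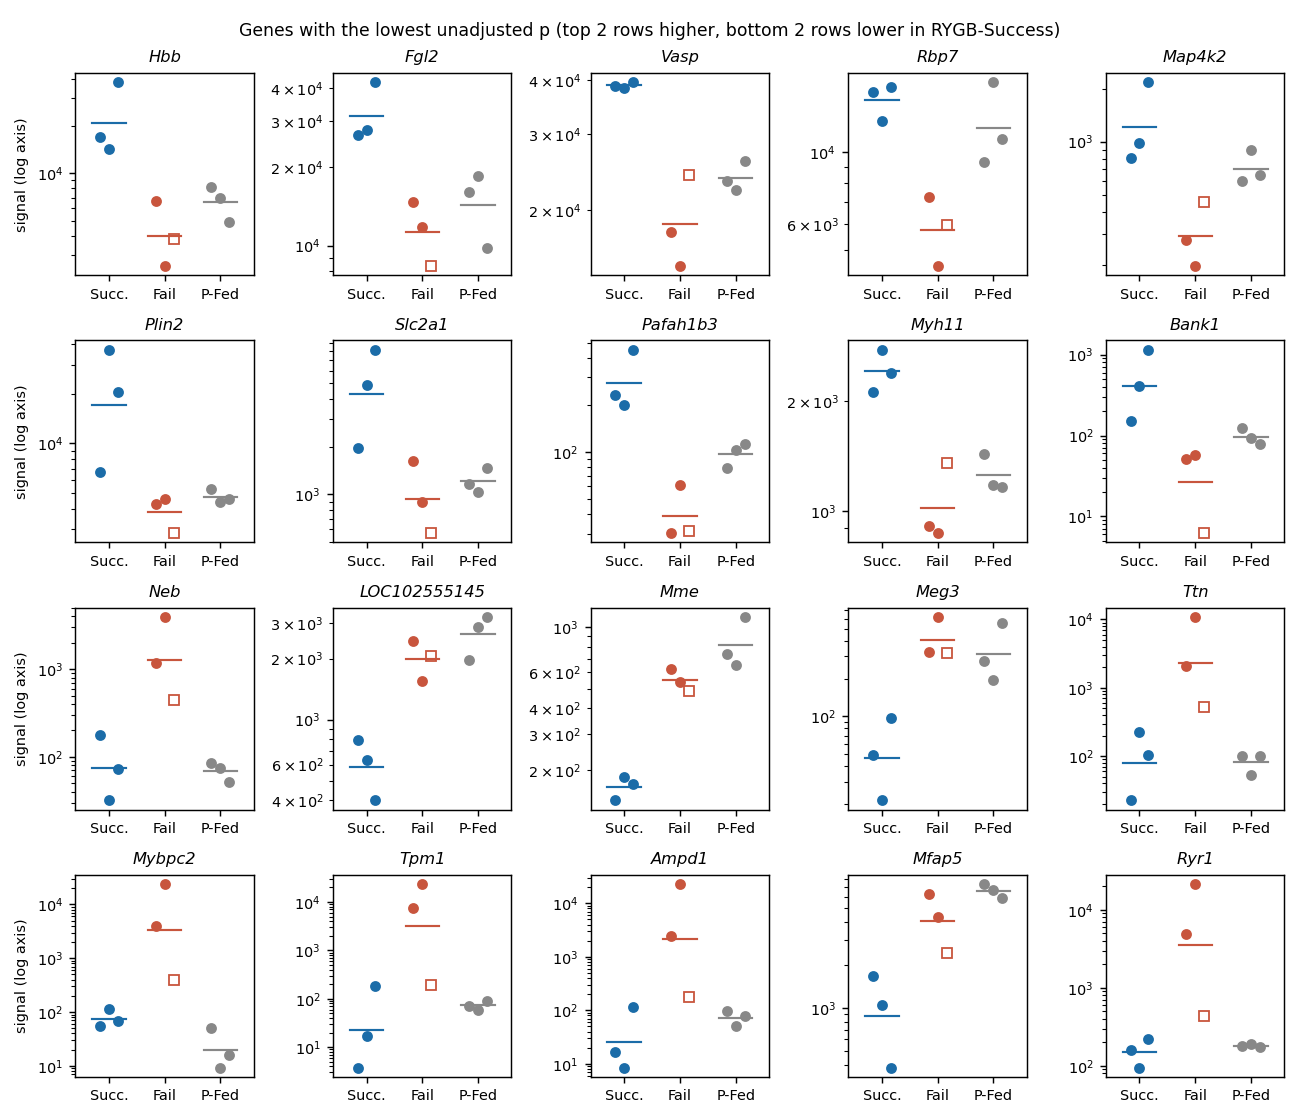
Signal on each fat array, on log axes, of the 10 higher (top rows) and 10 lower (bottom rows) genes with the lowest unadjusted p, in RYGB-Success (Succ.), RYGB-Fail (Fail) and Pair-Fed (P-Fed) rats. Points are arrays, the open square is Fail 3, and bars are means of log2 signal. In the 6 sarcomere and fibre genes of the lower rows (Neb, Ttn, Mybpc2, Tpm1, Ampd1, Ryr1) Fail 2 is the highest array and Fail 3 the lowest of its group, while Mme lies between 142 and 184 in RYGB-Success and between 489 and 625 in RYGB-Fail.

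Most energy genes of mitochondria read lower in RYGB-Success, and the size of the shift rested on Fail 2. Of 42 respiratory chain genes, 40 were lower in RYGB-Success, with a median log2 change of -0.51, and of 15 citric acid cycle genes 14 were lower, with a median of -0.48. None of either list passed an adjusted p of 0.05, with or without Fail 3, and at an unadjusted p under 0.05 3 respiratory chain genes were lower, where 2.6% of all tested genes were, and 1 was higher, where 3.9% were, and there were 0 in the cycle. Cyc1, cytochrome c1 of complex III, read 788, 499 and 468 on Success 1 to 3, and 639, 3296 and 1010 on Fail 1 to 3. Fail 2, the array with the highest muscle signal, was the high one. Without Fail 2 the medians were -0.04 for the respiratory chain and -0.01 for the cycle. Cpt1b, the muscle form of the enzyme that carries fatty acids into mitochondria, read 222, 190 and 107 against 301, 1962 and 514 (-2.02 ± 0.61). Cox8b, the muscle and brown fat form of a cytochrome oxidase subunit, read 39.6, 85.3 and 204 against 747, 13650 and 199, and it passed without Fail 3 (adjusted p = 0.0212, and 0.04 with quantile normalization as well). Cpt1a, the liver-type form, was on the other side, at 1987, 3963 and 3072 against 2145, 1708 and 985, with overlapping groups.

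Slc2a4, the insulin-regulated glucose carrier GLUT4 of fat and muscle, read 1181, 719 and 222 on Success 1 to 3, and 1659, 3437 and 484 on Fail 1 to 3 (-1.29 ± 0.72, adjusted p = 0.895). The groups overlapped, and its highest reading was again on Fail 2. Slc2a1, the glucose carrier GLUT1 of most cells, was the reverse. It read 1955, 4890 and 8163 against 1631, 891 and 568, a log2 change of 2.19 ± 0.51 (adjusted p = 0.649; 0.0605 without Fail 3) with no overlap. Irs2, an insulin receptor substrate, read 1950, 2330 and 1812 against 1469, 829 and 1151. Over 15 genes of insulin action and glucose uptake the median was 0.08, with a sign that turned under both rescalings (-0.08 and -0.22).

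Fatty acid synthesis genes were mostly higher in RYGB-Success fat. Of 19 genes on the array 16 were higher, with a median log2 change of 0.63 (0.61 without Fail 3 and 0.54 after quantile normalization as well, but -0.20 without Fail 3 after centring). At an unadjusted p under 0.05, 5 were higher (3.9% of all tested genes were) and 0 lower. Without Fail 3, 3 passed as higher (2.41% of all tested genes did), and after quantile normalization as well 0 did (0.138%). Fasn, fatty acid synthase, read 7453, 34680 and 19274 on Success 1 to 3, and 3443, 4652 and 7574 on Fail 1 to 3. The lowest RYGB-Success array was just below the highest RYGB-Fail array, which was Fail 3. Its log2 change was 1.79 ± 0.50 (adjusted p = 0.762), and without Fail 3 it was 2.09 ± 0.52 (adjusted p = 0.0409; 0.0774 with quantile normalization). Acly, which splits citrate to supply acetyl-CoA, read 12014, 29170 and 16175 against 7438, 7461 and 9943, with no overlap (1.12 ± 0.31; adjusted p without Fail 3 0.0432, and 0.105 with quantile normalization as well). Thrsp, the Spot 14 protein of lipogenic tissues, read 5824, 12753 and 6233 against 4034, 4020 and 5328, also with no overlap.

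Success 2 was the highest array for each of these 3 genes and for Fads1, the delta-5 desaturase. With Success 2 left out, the median of the list was 0.31, against 1.01 without Success 1. Scd, the delta-9 desaturase, read 8591, 45666 and 2356 against 6435, 10474 and 8476, and its log2 change of 0.23 was -0.88 without Success 2. Cholesterol synthesis genes showed little: 11 of 15 were higher with a median of 0.19 that turned to -0.11 after centring. Sc5d was the 1 gene at an unadjusted p under 0.05 (3.9% of all tested genes were higher at that threshold). It read 1301, 1430 and 1355 against 834, 977 and 584.

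Genes of the lipid droplet and of lipolysis gave few differences. Of 14 genes of triglyceride assembly and the droplet 11 were higher, with a median of 0.27, and of 12 lipolysis genes 9 were higher, with a median of 0.12, and both medians turned after centring (-0.03 and -0.17). Since 8434 of all 14217 named genes were higher too, such counts of direction say little by themselves. In the droplet list and the lipolysis list, 1 and 2 genes were higher at an unadjusted p under 0.05 (3.9% of all tested genes were), and 0 were lower. Plin2, a droplet coat protein that is induced by fatty acids, had 2 tested probe sets of unequal size of change. One read 6713, 37170 and 20395 on Success 1 to 3, and 4289, 4565 and 2833 on Fail 1 to 3 (2.17 ± 0.49; adjusted p = 0.594, and 0.0517 without Fail 3). The brighter on average read 11733, 15844 and 11253 against 8883, 9729 and 7545 (0.56 ± 0.24, but -0.35 without Fail 3 after centring). Neither probe set overlapped between the groups. Pnpla2, the triglyceride lipase of adipocytes, read 2304, 2705 and 1751 against 1286, 1351 and 906, and its activator Abhd5 read 6405, 11310 and 8268 against 6177, 4353 and 4428. Both were higher on every RYGB-Success array (unadjusted p = 0.0235 and 0.0181), and neither passed after adjustment (adjusted p = 0.83 and 0.827, limma), and without Fail 3 after centring their changes were -0.06 and -0.11. Lipe, hormone-sensitive lipase, overlapped, and its second tested probe set had the opposite sign. Dgat2, which makes triglyceride, read 3296, 2526 and 406 against 2357, 2181 and 2737, and the sign of its change rested on Success 3.

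Fatty acid uptake and carriage had the highest median of the lipid lists, with 9 of 12 genes higher and a median of 0.75 (0.93 without Fail 3, 0.55 with quantile normalization as well and 0.12 with centring). Rbp7, a cellular retinol-binding protein, read 15235, 12457 and 15866 on Success 1 to 3, and 7258, 4462 and 5955 on Fail 1 to 3. The groups were well apart, with a log2 change of 1.32 ± 0.28 (adjusted p = 0.586; 0.0294 without Fail 3, and 0.0801 with quantile normalization as well). Vldlr, the receptor for triglyceride-rich lipoproteins, went the other way at 509, 585 and 498 against 1245, 2527 and 929 (-1.43 ± 0.38; adjusted p without Fail 3 0.0244, and 0.0635 with quantile normalization). Fabp5, a fatty acid binding protein, read 1328, 1942 and 3324 against 1111, 935 and 862, and Cd36, the fatty acid translocase, read 1734, 1660 and 1819 against 1403, 777 and 822. Neither overlapped between the groups, neither passed the adjusted threshold, and the change of Cd36 was -0.07 without Fail 3 after centring. Lpl, lipoprotein lipase, read 42262, 40582 and 23881 against 17064, 18428 and 58595. It was high on Fail 3 and low on the other RYGB-Fail arrays, and its change of 0.38 was -0.01 after quantile normalization.

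**Figure D3:**
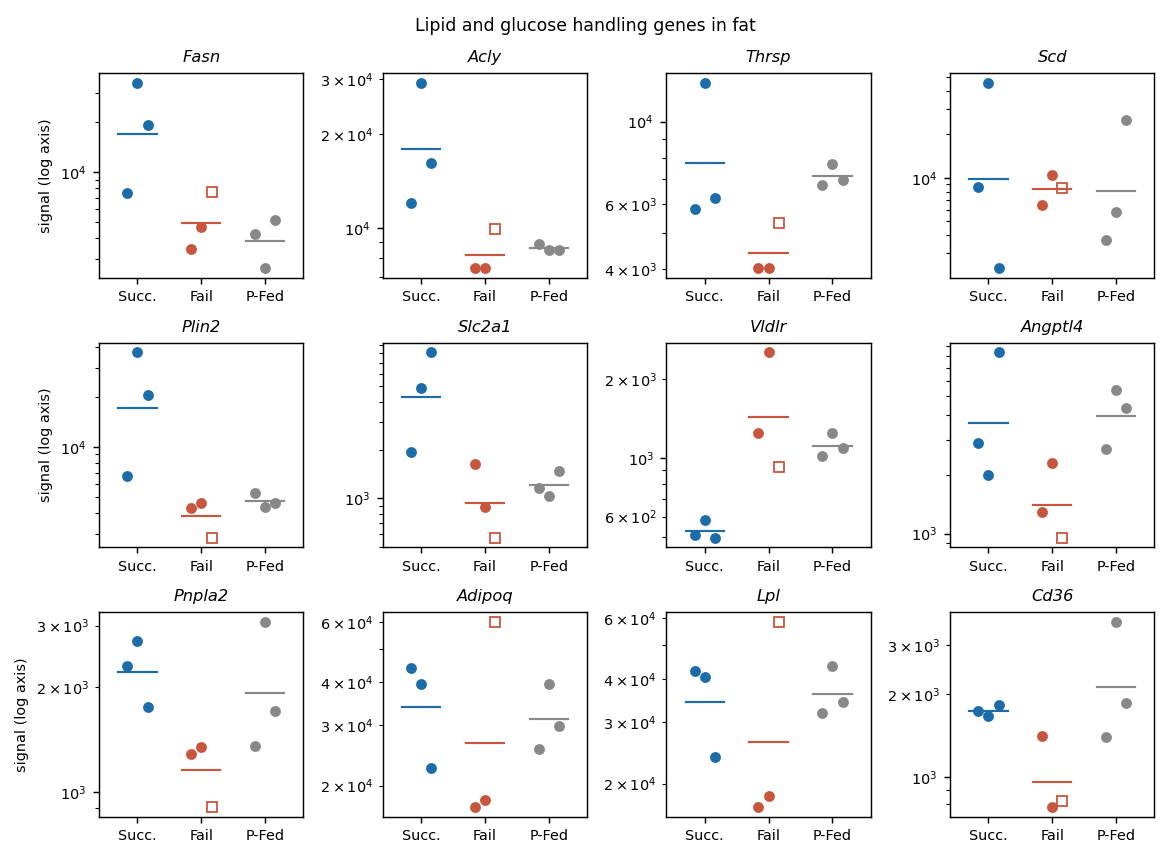
Signal on each fat array, on log axes, of 12 genes of lipid and glucose handling in RYGB-Success (Succ.), RYGB-Fail (Fail) and Pair-Fed (P-Fed) rats. Points are arrays, the open square is Fail 3, and bars are means of log2 signal. For Fasn, Acly, Thrsp and Plin2 the highest array is Success 2, for Vldlr the 3 RYGB-Success arrays lie between 498 and 585, and for Adipoq and Lpl Fail 3 is the highest array and Fail 1 and Fail 2 the lowest.

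Most adipocyte identity genes overlapped between the groups. Of 10 markers 2 did not overlap, both higher, and 5.26% of all tested probe sets were higher without overlap. Adipoq read 44093, 39528 and 22558 on Success 1 to 3, and 17271, 18123 and 60117 on Fail 1 to 3 (0.35 ± 0.44, adjusted p = 0.912), and the change was -0.03 after quantile normalization. Pparg, the master regulator of adipocytes, read 1679, 1048 and 668 against 1180, 598 and 1291. Leptin (Lep), made in proportion to fat mass, was below the filter at 8.19, 47.6 and 21.3 against 59.9, 17.2 and 191, and was not tested. Ucp1, the uncoupling protein of thermogenic fat, was below it too, at 79.3, 81.3 and 223 against 62.2, 28.1 and 158. Over the 10 adipocyte markers the median was 0.34 (-0.19 without Fail 3 after centring), with 8 higher. At an unadjusted p under 0.05, 2 were higher (3.9% of all tested genes were) and 0 lower, and 0 passed the adjusted threshold with or without Fail 3. Fabp4, the adipocyte fatty acid binding protein, had no overlap by a narrow margin, at 22468, 27784 and 24716 against 12064, 12004 and 22412. The 13 adipocyte transcription factors had a median of 0.25 and the 12 adipokines one of -0.23, which was -0.04 for the factors after centring and 0.12 for the adipokines without Fail 3. The 14 thermogenic genes had a median of 0.37 (-0.17 without Fail 3 after centring, and -0.03 without Fail 1) and the 19 genes of fatty acid oxidation one of 0.02 (-0.21 without Fail 3).

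Most matrix and progenitor genes read lower in RYGB-Success. Of 48 genes of the extracellular matrix and its enzymes, 34 were lower, with a median log2 change of -0.41 (-0.82 without Fail 3, and -0.99 with quantile normalization as well). At an unadjusted p under 0.05, 10 were lower (2.6% of all tested genes were) and 0 higher. Without Fail 3, 7 passed as lower (1.14% of all tested genes did), and after quantile normalization as well 0 did (0.453%). Of 23 markers of fibroblasts and preadipocytes, 18 were lower, with a median of -0.61. It was -0.90 without Fail 3, -0.18 without Fail 1 and -0.33 without Success 3. The lists share members. Mme, the cell surface peptidase neprilysin that marks stromal progenitors, read 142, 184 and 170 on Success 1 to 3, and 625, 540 and 489 on Fail 1 to 3. Both groups were tight and far apart, Fail 3 included, with a log2 change of -1.74 ± 0.36 (adjusted p = 0.576). Without Fail 3 it passed on the deposited scale (adjusted p = 0.023) and after quantile normalization (0.032), and with each RYGB array left out in turn the change lay between -1.82 and -1.63.

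Mfap5, a microfibril protein, read 1683, 1042 and 381 against 6316, 4374 and 2438, a log2 change of -2.22 ± 0.50 (adjusted p without Fail 3 0.0212, and 0.0668 with quantile normalization as well). Timp2, an inhibitor of matrix metalloproteinases, read 2312, 1245 and 922 against 5546, 4536 and 2280. Success 1 lay just above Fail 3, so that the groups overlapped, and it passed without Fail 3 (adjusted p = 0.0213, and 0.0635 with quantile normalization as well). The matrix protein Ecm1 read 974, 786 and 394 against 3170, 1625 and 1281, and the basement membrane protein Nid2 read 780, 726 and 472 against 1474, 1644 and 1434. For these 4 genes Success 3 was the lowest array. The Pair-Fed arrays were high, at 737, 655 and 1124 for Mme and at 7423, 6706 and 5949 for Mfap5. Col1a1, the main chain of type I collagen, overlapped widely at 11886, 15546 and 3058 against 15993, 13948 and 4487. The median of the matrix list was -0.05 without Success 3 and -0.14 without Fail 1. The imprinted noncoding RNA Meg3 read 49.1, 21.4 and 96.6 against 326, 621 and 320, at least 4.4-fold lower (adjusted p without Fail 3 0.0239, and 0.0291 with quantile normalization as well), and LOC102555145, a noncoding RNA in RefSeq, read 792, 635 and 400 against 2445, 1543 and 2068.

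Endothelial genes mostly read higher in RYGB-Success, and smooth muscle genes were split. Of 16 endothelial markers 14 were higher in RYGB-Success, with a median of 0.60 (0.85 without Fail 3, 0.77 with quantile normalization as well, 0.05 with centring as well, and 0.26 without Fail 2). At an unadjusted p under 0.05, 3 were higher (3.9% of all tested genes were) and 0 lower, and 0 passed the adjusted threshold with or without Fail 3. Kdr, the main receptor for the growth factor VEGF, read 12369, 8469 and 10376 on Success 1 to 3, and 6297, 4477 and 7741 on Fail 1 to 3, with no overlap (0.77 ± 0.30). Esam, an endothelial adhesion molecule, read 1519, 1083 and 1357 against 954, 394 and 629. Myh11, smooth muscle myosin, read 2115, 2762 and 2390 against 909, 870 and 1352. Both were apart between the groups. The log2 change of Myh11 was 1.24 ± 0.30 (adjusted p = 0.711), and without Fail 3 it was 1.44 ± 0.29 and passed as deposited (adjusted p = 0.0239) and after quantile normalization (0.0381). Mylk, the kinase that starts smooth muscle contraction, read 16184, 29314 and 21857 against 11834, 8179 and 11609 (1.07 ± 0.27; adjusted p without Fail 3 0.0374, and 0.208 with quantile normalization as well). Rgs5, a pericyte marker, read 474, 270 and 116 against 671, 402 and 339, with overlapping groups. Of the 12 smooth muscle and pericyte genes 7 were higher and 5 lower, with a median of 0.24, of -0.05 after centring and of -0.24 without Fail 3 after quantile normalization.

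Most blood, lymphocyte and epithelial markers read higher in RYGB-Success. Hbb, the beta chain of haemoglobin, had the lowest p of the higher genes named here. It read 17093, 14231 and 37918 on Success 1 to 3, and 6625, 2562 and 3805 on Fail 1 to 3, with no overlap and a log2 change of 2.39 ± 0.42 (adjusted p = 0.517). Without Fail 3 it passed as deposited (0.0217) and after quantile normalization (0.049). Alas2, the haem synthesis enzyme of red cell precursors, read 230, 258 and 1090 against 98.9, 31.2 and 7.37, at least 4.36-fold higher. Sptb, another member of the list, was lower, at 57.1, 73.7 and 94.5 against 91.1, 963 and 131. Epb42 read 124, 128 and 175 against 47.4, 12.3 and 266, and both genes overlapped between the groups. Of 11 red blood cell markers, of which 7 passed the filter, 8 were higher and 3 lower, with a median of 0.93. This median was 0.06 when signals under 88.9 were held at that value and 0.42 without Fail 2. The neutrophil markers, 9 on the array of which 4 passed the filter, had 8 higher and a median of 0.75, or 0.43 held at 88.9. Lcn2, a neutrophil and adipocyte protein, read 63.4, 5625 and 3253 against 192, 129 and 10.1, so that Success 1 lay within the RYGB-Fail range.

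Of 25 markers of B and T lymphocytes 24 were higher, with a median of 1.18 (1.23 without Fail 3, and 0.95 with quantile normalization as well), and of 1.03 with signals under 88.9 held at that value. Of the 25 markers 17 passed the filter on mean signal, some of them, such as Ms4a1, through high RYGB-Success arrays, so no counts of calls are given. Success 3 carried this group: the mean log2 signal of the list was 7.2, 7.1 and 9.9 on Success 1 to 3, and 6.5, 6.7 and 7.4 on Fail 1 to 3. Without Success 3 the median was 0.24. Ms4a1, the B cell antigen CD20, read 122, 950 and 2774 against 7.79, 76.2 and 309. Bank1, a B cell scaffold protein, read 149, 408 and 1155 against 50.6, 57.8 and 6.18 and was at least 4.64-fold higher, with no overlap. Cd3d, a chain of the T cell receptor complex, read 237, 91.8 and 1616 against 88.7, 55.6 and 88.3.

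Epithelial genes had the highest median of all lists. Of 38 markers of skin and breast epithelium 36 were higher in RYGB-Success, with a median of 1.83 (2.69 without Fail 3, and 1.76 with quantile normalization as well), and 17 passed the filter on mean signal. Held at 88.9 for dimmer signals the median was 0.91. Several of the 17, such as Krt18 and Oprpn, reached the filter through high RYGB-Success arrays, so no counts of calls or adjusted p-values are given. Krt18, a keratin of simple epithelia, read 194, 970 and 942 on Success 1 to 3, and 5.99, 20 and 286 on Fail 1 to 3. Its signal was at least 4.28-fold higher. Krt5, the keratin of basal layers, read 99.9, 1094 and 1070 against 43.5, 57.2 and 225. Oprpn, a secreted protein of glands, read 319, 5336 and 4004 against 17, 24.1 and 653, at least 11-fold higher. Elf5, a transcription factor of mammary epithelium, read 74.3, 1908 and 761 against 50.1, 40.8 and 146. In each of these 4 genes Success 2 and Success 3 were high, and Success 1 lay below Fail 3. The mean log2 signal of the list was 6.0, 8.7 and 8.4 on Success 1 to 3, and 4.3, 5.1 and 7.1 on Fail 1 to 3.

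**Figure D4:**
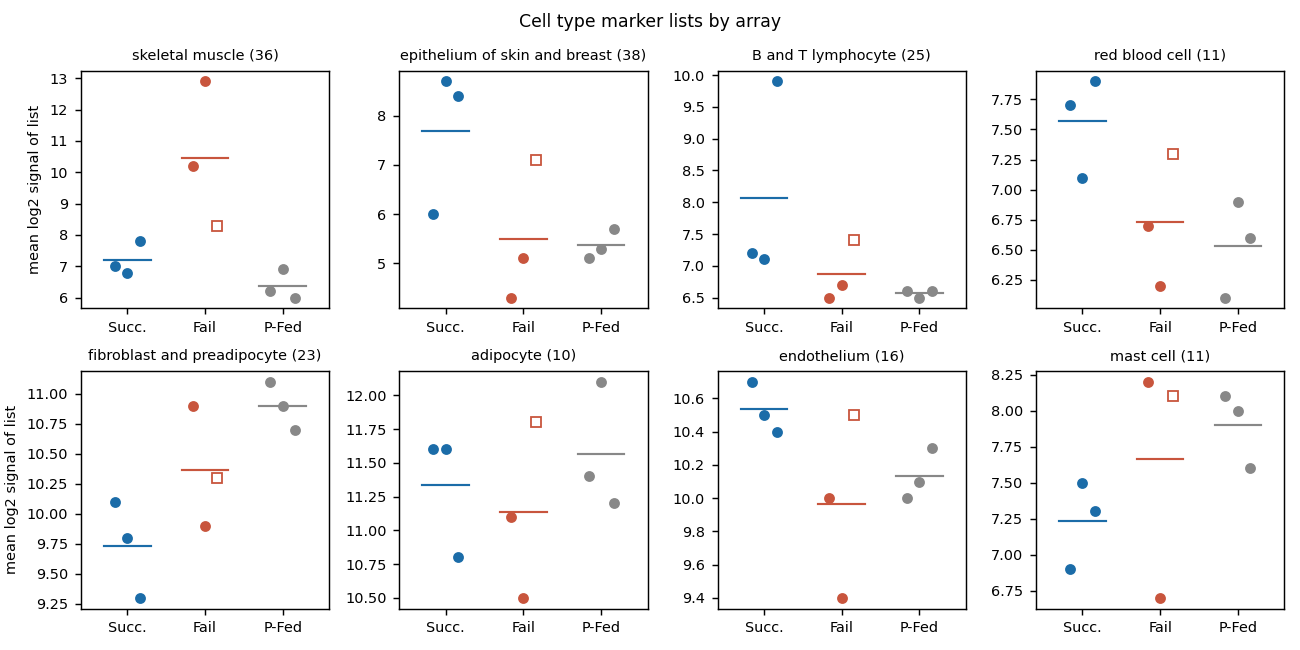
Mean log2 signal over the markers of 8 cell types on each fat array (number of markers in brackets), in RYGB-Success (Succ.), RYGB-Fail (Fail) and Pair-Fed (P-Fed) rats. Points are arrays, the open square is Fail 3, and bars are group means; each panel has its own axis. Skeletal muscle reaches 12.9 on Fail 2 and lymphocyte markers 9.9 on Success 3, and fibroblast markers lie between 9.3 and 10.1 in RYGB-Success against 9.9 to 10.9 in RYGB-Fail.

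List medians of muscle, blood, lymphocyte and epithelial markers thus differed between the groups, but unevenly across the arrays of a group. The lymphocyte median was 0.24 without Success 3, and the red blood cell median was 0.06 with signals under 88.9 held at that value. The part of these markers in the changes of the lipid, matrix and mitochondrial genes was not tested. Of all probe set values on the fat arrays 0 were at 0, so no defining marker was listed at 0. On 3 against 3 arrays as deposited, the lists that follow had medians smaller in size than those of muscle, red blood cell, lymphocyte and epithelial markers. The macrophage and inflammation list had 14 higher and 16 lower of 30 genes and a median of -0.02, at -0.51 without Fail 3 and 0.31 without Fail 1. Csf1r, the receptor macrophages need to survive, read 551, 346 and 670 on Success 1 to 3, and 1870, 1183 and 484 on Fail 1 to 3 (adjusted p without Fail 3 0.0432, and 0.0995 with quantile normalization as well). It was lower than Fail 1 and Fail 2 on all RYGB-Success arrays, and Fail 3 lay within their range. Ccl2, the chemokine that draws monocytes, read 395, 339 and 846 against 1883, 379 and 617. Other members of the list were higher. Ccl3 read 186, 199 and 304 against 121, 100 and 162, with no overlap (0.84 ± 0.52, adjusted p = 0.895, limma). Lyz2 and Ccl7 had log2 changes of 0.62 and 0.69, with overlapping groups. Of 21 interferon response genes 14 were higher with a median of 0.18 (-0.07 without Fail 3 and -0.39 without Success 1), and Mx1 was highest on Success 1. The 11 mast cell markers had a median of -0.28, and the 15 nerve and Schwann cell markers had one of 0.12 that turned after quantile normalization (-0.34).

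Alox15, the 12/15-lipoxygenase that oxidises polyunsaturated fatty acids, was among the clearest single differences. It read 923, 562 and 2735 on Success 1 to 3, and 77, 42.2 and 382 on Fail 1 to 3. No array overlapped, and the log2 change was 3.39 ± 0.85 (adjusted p = 0.711). Without Fail 3, where the mean of Fail 1 and Fail 2 lay under 88.9, it was at least 12.6-fold higher and passed as deposited (adjusted p = 0.0149) and after quantile normalization (adjusted p = 0.0386). On the Pair-Fed arrays it read 49.1, 150 and 47.8. The 17 lipoxygenase and prostaglandin enzymes as a list had a median of -0.11 (0.21 without Fail 3), and Ptges, a prostaglandin E synthase, read 50.7, 101 and 139 against 415, 156 and 140.

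Genes that respond to glucocorticoids had 11 of 16 higher, with a median of 0.56 (0.83 without Fail 3, 0.43 with quantile normalization as well and 0.12 without Success 3). Mt2A, a metallothionein, read 6282, 6470 and 48865 on Success 1 to 3, and 3612, 4329 and 1883 on Fail 1 to 3. Success 3 was far above the rest, and without it the log2 change was 1.05 in place of 2.03. Fkbp5, a chaperone of the glucocorticoid receptor, read 1132, 1680 and 1805 against 676, 931 and 924, with no overlap (0.85 ± 0.41, adjusted p = 0.887). Glul, glutamine synthetase, passed without Fail 3 (adjusted p = 0.0423, and 0.404 with quantile normalization as well), but its 2 other tested probe sets had the opposite sign. Of 23 genes of glycolysis and hypoxia 13 were higher with a median of 0.20 (-0.10 after centring). Ndrg1, which rises in low oxygen, read 5539, 12272 and 7977 against 4064, 2185 and 4519, and enolase (Eno1) read 1580, 2222 and 2373 against 1039, 909 and 1210. Both were apart between the groups. The log2 change of Ndrg1 was 1.25 ± 0.36 (adjusted p = 0.762), and without Fail 3 it was 1.45 ± 0.37 (adjusted p = 0.0425, and 0.0762 with quantile normalization as well).

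Ribosomal protein genes were higher in 27 of 28 cases on the deposited scale, with a median of 0.65. At an unadjusted p under 0.05, 17 were higher (3.9% of all tested genes were). Without Fail 3, 6 passed (2.41% of all tested genes did), and after quantile normalization as well 0 did. The size depended on scaling: the median was 0.20 after quantile normalization, and without Fail 3 it was 0.21 with quantile normalization and -0.15 with centring. Rps6 read 35945, 35533 and 39829 on Success 1 to 3, and 21736, 18457 and 27641 on Fail 1 to 3 (0.73 ± 0.22), and its change was 0.08 after quantile normalization. The 99.5th percentile of signal was 17418 to 18669 on the RYGB-Success arrays, against 12921 to 13896 on the RYGB-Fail arrays. Vasp, which elongates actin filaments, read 38792, 38448 and 39510 against 17793, 14863 and 24196 (1.07 ± 0.23). It passed without Fail 3 (adjusted p = 0.00994) and did not with quantile normalization as well (0.288). Prrc2c, Gosr1, Ctnnb1 and a probe set the platform names COX2 passed without Fail 3 and had the same pattern among bright probe sets: 43249 to 58409 on the RYGB-Success arrays, 14188 to 20205 on Fail 1 and Fail 2, and 57400 to 118871 on Fail 3. None of these 4 passed after quantile normalization, and 1 of the 2 other tested Gosr1 probe sets had the opposite sign.

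**Figure D5:**
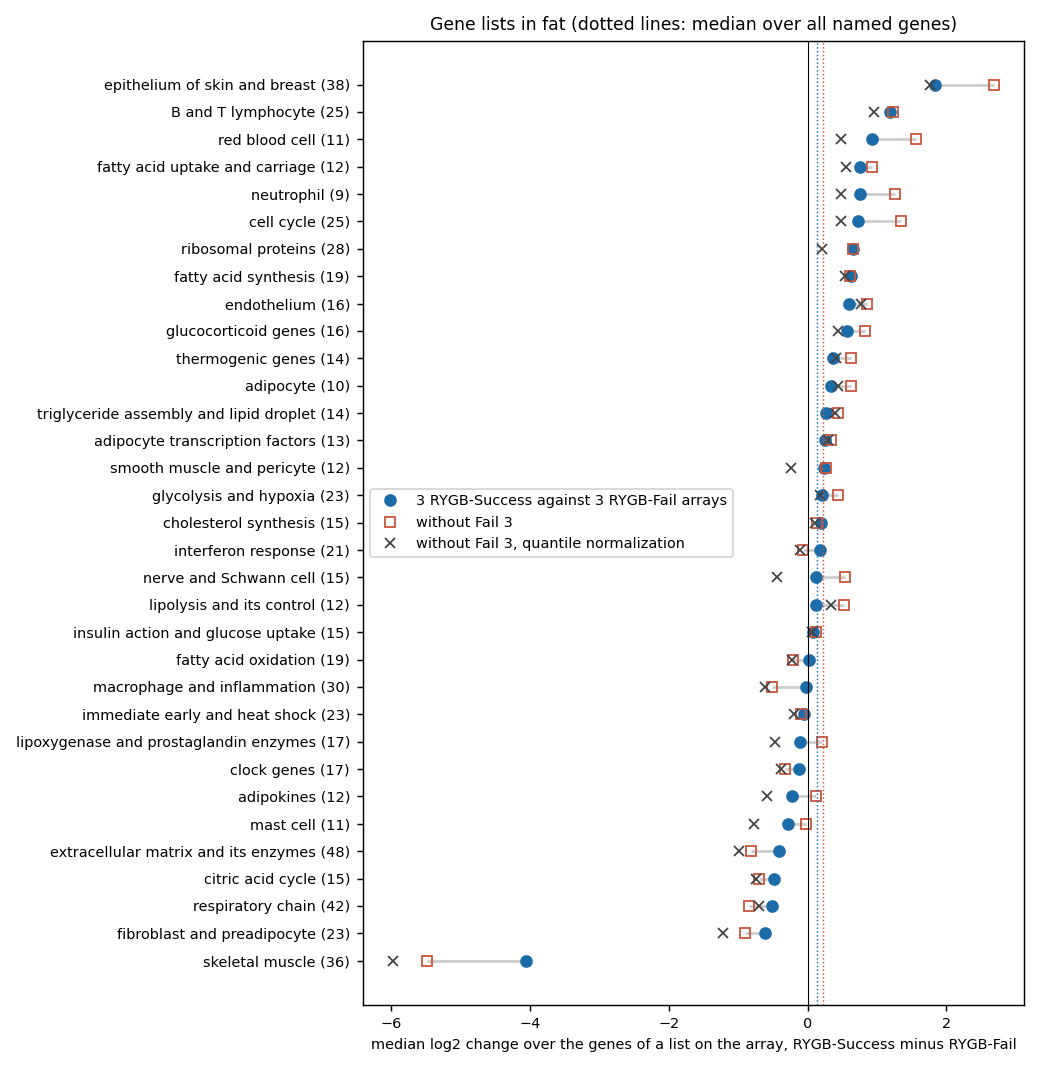
Median log2 change of each gene list (number of its genes on the array in brackets), RYGB-Success minus RYGB-Fail. Filled circles show 3 against 3 arrays, open squares the values without Fail 3, and crosses the values without Fail 3 after quantile normalization; dotted lines mark the medians over all named genes (0.13, and 0.22 without Fail 3). Skeletal muscle lies at -4.06 and epithelium at 1.83, and every list other than these and B and T lymphocyte lies within 1 of 0 on 3 against 3 arrays.

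The remaining higher genes with the smallest p were of varied function. Fgl2, a secreted protein of immune and endothelial cells, read 26474, 27776 and 42115 on Success 1 to 3, and 14666, 11798 and 8351 on Fail 1 to 3 (1.47 ± 0.32; adjusted p without Fail 3 0.0372, and 0.301 with quantile normalization as well), and its 3 other tested probe sets had the same sign. Map4k2, the germinal centre kinase, read 812, 988 and 2169 against 275, 196 and 454 (2.05 ± 0.45; adjusted p without Fail 3 0.0205, and 0.0553 with quantile normalization as well). Pafah1b3, a subunit of an enzyme that inactivates platelet-activating factor, read 231, 200 and 452 against 30.1, 61.6 and 31.3, at least 3.1-fold higher. All 3 genes had groups that did not overlap, which the rule that named them required. Ces1c, a carboxylesterase, passed without Fail 3 as deposited and after quantile normalization (adjusted p = 0.00994 and 0.0245), but it read 3992 on Fail 3 against 762 to 1563 on the RYGB-Success arrays, and its other tested probe set had the opposite sign. Of 25 cell cycle genes 20 were higher with a median of 0.73 (1.34 without Fail 3, and 0.22 without Fail 2), and Prc1, which bundles the spindle midzone, read 240, 407 and 343 against 158, 169 and 89.5. The 23 immediate early and heat shock genes had a median of -0.05, and among them Nr4a1, a nuclear receptor induced within minutes of a stimulus, read 182, 209 and 371 against 692, 592 and 358, with Success 3 just above Fail 3. The 17 clock genes had a median of -0.12 (0.01 without Fail 2) with 0 at an unadjusted p under 0.05, where 3.9% of all tested genes were higher and 2.6% lower.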

How the data were processed

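The 6 fat arrays, the 3 Pair-Fed fat arrays and, for marker checks, the hypothalamus arrays were grouped by their sample titles. The authors deposited 1 linear intensity (the MAS5 signal) for each probe set. The submitters' processing notes name MAS5 and GCOS. The versions of both are not given in the sources used here, and detection calls were not used. In every fat column the mean after trimming 2% at each end was 500.1 or 500.2, so the authors' intensity values for fat had been scaled before deposit. Array number limits the precision.

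Of 31099 probe sets, 20826 had 1 gene symbol in the platform annotation, 436 several, 9780 none and 57 were controls, which were left out. Identifiers of 20764 matched a RefSeq table of GRCr8, and 0 symbols were updated. Values were log2 of the signal with no pseudocount. The upper 60% by mean over the 9 fat arrays (mean signal of at least 88.9, 18625 probe sets, 10145 genes) were tested with limma 3.58.1 in R 4.3.3 (lmFit, eBayes with a trend) over all 9 fat arrays, 2-sided, with Benjamini-Hochberg adjustment; adjusted p-values without Fail 3 come from the same fit on 8 arrays. The step was tested on simulated data. Python 3.11.15, pandas 2.3.3 and matplotlib 3.10.9 made the tables and plots.

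The 33 gene lists (22 of pathways and 11 of cell type markers) are given by counts and medians over members on the array, with each gene read from its probe set of highest mean signal in fat. Named genes were the 10 higher and 10 lower with the lowest unadjusted p, non-overlapping groups and a log2 change of at least 1, then 6 each way without Fail 3, up to 4 of each list, and fixed anchor genes. The members and lists were chosen with earlier results of these data known. Alternatives were each array left out, quantile normalization, median centring, a pseudocount, values held at 88.9, other filters, array weights, the 6 RYGB arrays alone and a block for replicate number.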

Additional observations from a re-analysis of the deposited data

How the results depend on the processing

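The count of 0 probe sets at an adjusted p of 0.05 held with quantile normalization, median centring, a pseudocount, held values, both other filters, the 6 RYGB arrays alone and every left-out array except 2: it was 13 without Success 1 and 1116 without Fail 3, and array weights gave 26 (Fail 3 had the lowest weight, 0.175). The count at an unadjusted p under 0.05, 1060, was 602 with the 6 RYGB arrays alone, 673 after centring, 2906 with array weights and 643 to 4327 with an array left out. The 1465 non-overlapping probe sets were 913 after centring, 2476 with no filter, which tests more probe sets, and 2450 to 6914 with an RYGB array left out, where fewer arrays make separation easier. Under settings added after seeing the data, the 1116 calls without Fail 3 were 149 with quantile normalization, 1940 with centring, 686 with held values, 632 with no filter, 642 with the upper 40%, 54 with the 5 RYGB arrays alone, 157 with the replicate block and 7 (without Fail 2) to 1838 (without Fail 1) with another array left out. Same-numbered arrays were not treated as pairs, since they share only a number. Their deviations correlated at 0.06, 0.16 and 0.26 between RYGB-Success and RYGB-Fail, and not every sample correlated best with its own number. With the replicate block over all 9 arrays 0 passed and 1290 had an unadjusted p under 0.05.

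Of 155 named probe sets 142 kept their direction under every alternative of the 3 against 3 comparison. The exceptions, none past the threshold, were Dgat2 (-0.69, left-out range -1.25 to 0.26), Ebf1 (0.27, -0.03 to 0.42, and -0.03 centred), Cox7b (0.61, -0.07 with quantile normalization), S100a9 (0.76, -0.12 to 1.64), Np4 (0.22, -0.33 to 1.26, -0.33 with quantile normalization and -0.08 centred), S100b (-0.58, -1.12 to 0.22), Prx (0.58, -0.04 to 1.44), Adipoq (0.35, -0.03 with quantile normalization), Pparg (0.12, -0.23 to 0.45, and -0.18 centred), Scd (0.23, -0.88 to 1.26, and -0.07 centred), Lpl (0.38, -0.01 with quantile normalization), Ccl2 (-0.65, -1.16 to 0.00) and Col1a1 (-0.27, -0.85 to 0.44). Without Fail 3 the sign of 0 named probe sets differed from that of 3 against 3 arrays, with quantile normalization as well that of 5, and with centring that of 26, all of them higher before it. Of these only Rpl23 (-0.01) had passed without Fail 3. List medians moved without Fail 3 after quantile normalization to 0.21 for ribosomal proteins, -0.99 for the extracellular matrix and its enzymes and -5.98 for skeletal muscle, and after centring to -0.15, -1.62 and -6.29, with -0.20 for fatty acid synthesis and -1.65 for the respiratory chain. With all arrays the ribosomal proteins list was 0.20 after quantile normalization and 0.35 after centring. The red blood cell list (0.93) was 0.21 with a pseudocount, 0.06 with held values and 0.42 to 1.56 with an array left out. Where not stated, the cause was not tested. Signals under 88.9 scatter widely on the log scale and limit the lists of dim markers.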
